A study of Homo sapiens with 16 samples.

Results

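Interferon-stimulated genes are the effectors that cells switch on when type I, II or III interferon binds its receptor. A set of 42 such genes was taken by name from a list of classical members, with earlier results of these data known. The set was followed in the RNA of osteosarcoma cells with and without an edited MDM2, out of 28685 genes held in both experiments. U2OS is a human osteosarcoma cell line with wild-type p53. It was compared as cells carrying MDM2 W329G after CRISPR/Cas9 editing and as wild-type (WT) cells. MDM2 is the ubiquitin ligase that keeps p53 low, and W329G replaces a tryptophan of it with a glycine. The 4 groups were W329G cells treated with 5-fluorouracil (5-FU), W329G cells given DMSO, WT cells treated with 5-FU and WT cells given DMSO, with 4 libraries each. 5-FU, a pyrimidine analog, was given at 50 µM, and both treatments lasted 24 h. Each genotype was present as 2 numbered lines of cells, and the whole design was carried out in 2 experiments, so that the 4 libraries of a group are cells 1 and 2 of experiment 1 followed by cells 1 and 2 of experiment 2. That order holds wherever 4 values are listed below. No source used here says whether a numbered line is 1 clone or whether the experiments began from separate thaws, so a p-value reflects the spread of these libraries alone.

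The type I interferon pathway runs from sensor to effector. Cytosolic RNA sensors such as RIG-I (RIGI) and MDA5 (IFIH1) signal through MAVS to the factors IRF3 and IRF7, which drive interferon genes. Secreted interferon acts through its receptor and the kinases JAK1 and TYK2 on a complex that includes STAT2 and IRF9 and binds a DNA motif, the interferon-stimulated response element (ISRE), in front of its target genes. Several of these genes also answer to other factors, and TRIM22 and TAP1 are known p53 targets.

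Total counts per library ran from 24715999 to 56877328, and mitochondrially encoded genes took 7.14% to 31.84% of the joined counts, with ranges that overlapped between the groups. None of 9 mesenchymal and bone markers and none of 7 epithelial markers stayed at 3 counts or fewer in every library. Of 6 neural markers 1 did, and of 10 blood cell markers 5 did. Summed per library in WT cells with DMSO, the mesenchymal and bone markers had 6660 to 10500 CPM. The epithelial markers had 15.2 to 104 CPM there, the neural markers 9.16 to 43.1 CPM and the blood cell markers 1.13 to 94.4 CPM. LYZ was the blood marker with the highest level, listed at 0 in the lowest library of each group and reaching 130.0 CPM in W329G cells with 5-FU. As a comparator, of 10 established p53 targets none was called with 5-FU in W329G cells with unpaired lines and 2 rose with paired lines, while all 10 rose in WT cells in both fits, with unpaired medians of 0.09 and 2.08 on the log2 scale.

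All 42 genes passed the filter on low counts, which kept 16430 genes for the responses to 5-FU. Per kilobase of exon in experiment 1, whose files give gene lengths, the level was highest for IFITM3, a membrane protein that blocks virus entry, at 59.3 ± 12.0 CPM per kb (SD over 8 libraries). IFI6, a mitochondrial survival protein, followed at 42.9 ± 11.7 CPM per kb. The immunoproteasome subunit PSMB8 stood at 24.0 ± 2.32 and the RNA-editing enzyme ADAR at 23.8 ± 2.68 CPM per kb, and these 2 did not differ beyond their spread. At the low end were MX2, DHX58 and OAS2, with 0.0855, 0.0811 and 0.0805 CPM per kb, within their spread of one another.

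Transcripts of the interferons themselves were at or near 0. Of 21 interferon genes 13 had no count in any of the 16 libraries, among them IFNB1, the type I interferon that most cell types can make, and 19 never exceeded 3 counts. A count of 0 allows up to 3 counts, which is 0.0534 to 0.124 CPM depending on the library. The exception that passed the filter was IFNE, an epithelial type I interferon, which reached 27 counts in its highest library and had 0.126 to 0.722 CPM in W329G cells with 5-FU, 0.0279 to 0.237 CPM in W329G cells with DMSO, 0.296 to 0.608 CPM in WT cells with 5-FU and 0 to 0.146 CPM in WT cells with DMSO. The log2 response of IFNE to 5-FU was 1.69 in W329G cells and 2.25 in WT cells, called in neither with unpaired lines. With paired lines it was called higher in WT cells (2.31) and was not called in W329G cells (1.65). Receptor and kinase genes were present, since all 9 passed the filter.

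The experiments did not measure every gene alike. ISG15, a ubiquitin-like modifier, had 8.81 to 15.6 CPM in the 8 libraries of experiment 1 and is listed at 0 in the 8 libraries of experiment 2. IRF7 had 0.529 to 0.921 CPM in experiment 1 and is listed at 0 in 7 of 8 libraries of experiment 2. For these genes each fold change below rests on experiment 1. IRF9 averaged 2.40 CPM in experiment 1 and 19.0 CPM in experiment 2, and in the experiment 1 annotation 48.4% of its exon bases are shared with a second gene on the same strand. IFIH1 averaged 4.79 CPM in experiment 1 and 0.425 CPM in experiment 2. The cause of these differences was not tested. IFITM1, IFITM2 and IFITM3 are related neighbours. Of the IFITM1 exon bases 32.5% also belong to IFITM2, whose counts were 49.8 times higher, so the split of reads among these genes is uncertain. IFIT2 and IRF3 each overlap a gene on the opposite strand, LIPA and BCL2L12, and no source used here states whether strand was used in counting.

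The ISRE was looked for in the promoters, since it is the element through which the family is known to answer interferon. Windows reaching from 250 bases before to 50 bases after the RefSeq transcript start (build GRCh38.p14) were at hand for 31 of the 42 genes. The letters GAAANNGAAA, read on both strands, stood in at least 1 window of 20 of these 31 genes (64.5%), against 4.38% of 27305 genes with a window. The letters TTCNNNGAA, the core of the gamma-activated site, stood in 9 of 31 (29.0%), against 9.38% of all. A match describes the letters and not a bound site, and overlapping ISRE matches were counted separately. The 250 bases before the start are shown for TAP1, OAS3 and RIGI, which changed with 5-FU in WT cells, with ISRE letters in capitals on the strand of the gene; the RIGI window holds no match.
TAP1, chr6:32853705-32853954, minus strand: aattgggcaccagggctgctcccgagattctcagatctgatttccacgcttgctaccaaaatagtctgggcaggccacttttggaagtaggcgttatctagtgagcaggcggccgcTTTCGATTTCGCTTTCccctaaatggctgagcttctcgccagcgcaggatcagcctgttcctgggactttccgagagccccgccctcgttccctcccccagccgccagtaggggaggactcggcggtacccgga
OAS3, chr12:112938224-112938473, plus strand: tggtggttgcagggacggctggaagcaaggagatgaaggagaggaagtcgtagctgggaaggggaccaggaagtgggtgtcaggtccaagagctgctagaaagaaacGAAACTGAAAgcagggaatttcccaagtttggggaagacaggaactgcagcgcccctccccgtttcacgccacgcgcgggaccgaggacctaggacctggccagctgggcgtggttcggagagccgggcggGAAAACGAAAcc
RIGI, chr9:32526197-32526446, minus strand: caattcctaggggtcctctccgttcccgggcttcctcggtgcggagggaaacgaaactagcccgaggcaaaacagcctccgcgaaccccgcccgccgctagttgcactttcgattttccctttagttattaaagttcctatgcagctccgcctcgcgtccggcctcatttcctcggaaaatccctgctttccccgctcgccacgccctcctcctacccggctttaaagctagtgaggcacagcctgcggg

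In TAP1 the capitals hold 2 overlapping matches, at positions -134 and -128 from the start, and in OAS3 the matches are at -143 and -12. Short stretches around the match farthest upstream are shown next for 6 further genes that differed between the genotypes under 5-FU, to let the shared letters be compared. Where the capitals begin with TTTC, the match lies on the other strand, and in TRIM21 and BST2 the capitals join overlapping matches.
IFIT5, chr10:89414513-89414542, plus strand: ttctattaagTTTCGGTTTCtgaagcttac
IFI44, chr1:78649761-78649790, plus strand: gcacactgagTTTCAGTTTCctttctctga
IFI44L, chr1:78620274-78620303, plus strand: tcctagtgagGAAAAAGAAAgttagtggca
TRIM21, chr11:4393663-4393692, minus strand: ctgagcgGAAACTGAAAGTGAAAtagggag
BST2, chr19:17405738-17405767, minus strand: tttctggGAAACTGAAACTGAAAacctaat
EIF2AK2, chr2:37156967-37156996, minus strand: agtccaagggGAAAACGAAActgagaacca

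Of 13 genes called in at least 1 comparison with their lines and libraries taken by label, 10 had a window and 8 of these held ISRE letters. Of the genes not called 21 had a window and 12 held them. Neither share was tested against the other.

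**Figure D1:**
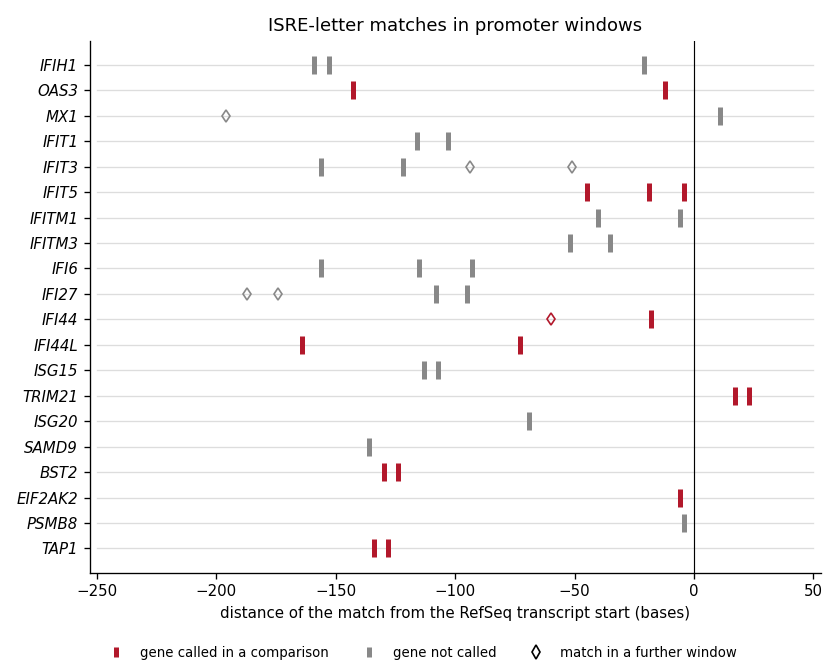
Positions of ISRE letters (GAAANNGAAA on either strand) in the RefSeq promoter windows of the 20 interferon-stimulated genes with a match, as distance in bases from the transcript start at 0. Vertical bars stand for matches in the first window of a gene and open diamonds for matches in a further window, in red for genes called in a comparison; matches lie on both sides of the start, and those of TRIM21 follow it.

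The first question was whether 5-FU changed the set in either genotype. In W329G cells, with 4 libraries against 4, none of the 42 genes changed (edgeR quasi-likelihood test, Benjamini-Hochberg adjusted p under 0.05, which is what "called" means below), while 0.785% of the 16430 genes tested were called. A single member had an unadjusted p under 0.05, and the DESeq2 test called 1, TAP1. In WT cells 4 of 42 changed, where 8.78% of all genes tested were called, so that the share of the set, 9.52%, lay near the background. TAP1, TRIM22 and RIGI rose and OAS3 fell. The median response of the set was 0.05 in W329G cells and 0.07 in WT cells on the log2 scale, against 0.02 and 0.01 over all genes. Both genotypes had 4 pairs of libraries from the same line and experiment, and with these pairs as blocks the number called became 3 of 42 in W329G cells (10.9% of all genes) and 11 of 42 in WT cells (24.8% of all genes). TAP1 then rose and IFI44 and IFIT1 fell in W329G cells. In WT cells IFIT2, IFIT3, IRF9, OASL and STAT2 joined the genes that rose, and EIF2AK2 and USP18 joined OAS3 among those that fell.

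Among the antigen processing genes, TAP1 encodes a subunit of the transporter that carries peptides into the endoplasmic reticulum for loading onto class I molecules. It had 51.5, 54.2, 28.5 and 26.1 CPM in W329G cells with 5-FU, against 38.9, 39.7, 24.2 and 14.9 CPM with DMSO. In WT cells it had 105, 108, 50.0 and 50.0 CPM with 5-FU, against 39.2, 47.5, 22.2 and 18.3 CPM with DMSO. Within each experiment every 5-FU library of WT cells lay above every other library, and every 5-FU library of W329G cells lay above those with DMSO. Over both experiments the W329G groups overlapped and the WT groups did not. TAP1 was higher with 5-FU in 4 of 4 pairs in each genotype. The log2 response was 0.46 ± 0.13 (SE) in W329G cells (edgeR adjusted p = 0.127, and 0.0118 with paired lines) and 1.30 ± 0.13 in WT cells (adjusted p = 2.08e-05). It was 1.30 and 1.31 in WT cells in experiments 1 and 2 alone, and 0.42 and 0.47 in W329G cells. Its neighbours in the same gene cluster on chromosome 6, the inducible proteasome subunits PSMB8 and PSMB9, were not called in either genotype, with -0.15 ± 0.14 and 0.01 ± 0.16 in W329G cells and 0.07 ± 0.14 and -0.30 ± 0.16 in WT cells.

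TRIM22, one of the TRIM E3 ligases and an antiviral restriction factor, had 11.5, 22.7, 30.8 and 16.7 CPM in W329G cells with 5-FU, against 8.32, 13.0, 28.2 and 22.0 CPM with DMSO. In WT cells it had 55.0, 38.6, 64.4 and 86.1 CPM with 5-FU, against 17.4, 16.9, 22.7 and 31.0 CPM with DMSO. The WT groups did not overlap, and the W329G groups did. Its log2 response was 0.28 ± 0.25 in W329G cells (edgeR adjusted p = 0.697) and 1.47 ± 0.26 in WT cells (adjusted p = 0.00189), higher in 4 of 4 WT pairs. TRIM21, an antibody receptor in the cytosol and also an E3 ligase, had -0.19 ± 0.11 in W329G cells and 0.03 ± 0.11 in WT cells, neither called.

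Of the RNA sensors and their adaptor, RIGI, the sensor of short double-stranded RNA ends, had 13.2, 12.7, 7.96 and 9.76 CPM in W329G cells with 5-FU, against 11.7, 10.3, 10.3 and 13.3 CPM with DMSO. In WT cells it had 15.6, 15.5, 15.5 and 13.9 CPM with 5-FU, against 9.67, 10.9, 10.4 and 11.1 CPM with DMSO. The WT groups did not overlap. The log2 response was -0.08 ± 0.16 in W329G cells and 0.52 ± 0.16 in WT cells (edgeR adjusted p = 0.0495), and the call in WT cells ended without any 1 of the 4 pairs (adjusted p = 0.117 to 0.199) and without the low-count filter (0.0908). The other sensor IFIH1, the regulator DHX58, the adaptor MAVS and TRIM25, the ligase that activates RIG-I, were not called in either genotype.

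The OAS enzymes sense double-stranded RNA and activate RNase L, and OASL is a catalytically inactive relative that binds RIG-I. OAS3 had 28.4, 18.9, 22.2 and 26.9 CPM in W329G cells with 5-FU, against 27.0, 20.9, 23.8 and 25.0 CPM with DMSO. In WT cells it had 8.76, 12.8, 19.2 and 10.6 CPM with 5-FU, against 22.3, 28.5, 35.7 and 25.6 CPM with DMSO. The WT groups did not overlap, and the WT cells with 5-FU stood below the other 3 groups save for 1 library, at 19.2 CPM, which lay just above the lowest W329G value of 18.9 CPM. The log2 response was -0.01 ± 0.20 in W329G cells and -1.13 ± 0.21 in WT cells (edgeR adjusted p = 0.00284).

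OASL had 6.93, 6.06, 2.10 and 2.28 CPM in W329G cells with 5-FU, against 6.06, 7.21, 2.16 and 2.27 CPM with DMSO. In WT cells it had 32.3, 12.6, 8.89 and 7.96 CPM with 5-FU, against 18.4, 8.00, 5.44 and 5.17 CPM with DMSO. It was higher with 5-FU in 4 of 4 WT pairs, while the WT groups overlapped. The response in WT cells was 0.72 ± 0.26 on the log2 scale (edgeR adjusted p = 0.112, and 0.000581 with paired lines). OAS1 and OAS2 were not called, with -0.23 ± 0.40 and 0.70 ± 0.65 in W329G cells and -0.20 ± 0.40 and 0.11 ± 0.66 in WT cells.

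**Figure D2:**
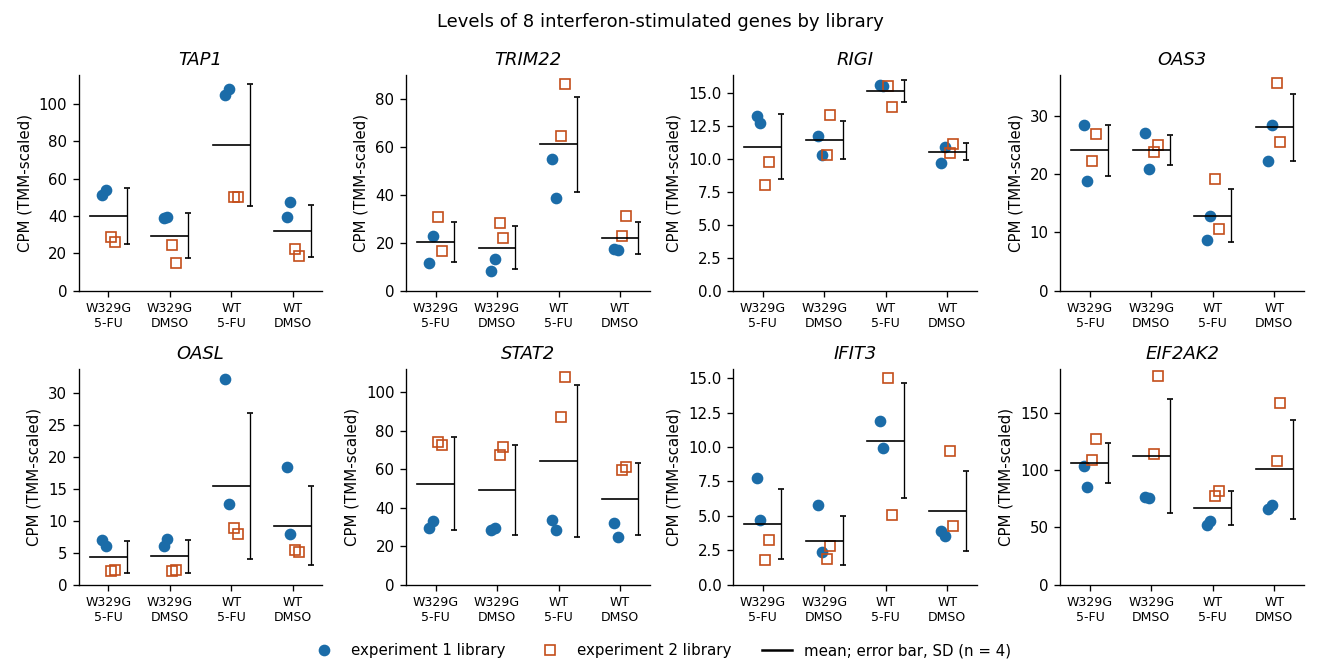
Levels (CPM, with library sizes scaled by TMM factors) of 8 interferon-stimulated genes in each of the 16 libraries, by genotype and treatment; filled circles are experiment 1, open squares experiment 2, horizontal lines the mean and error bars the SD (n = 4). TAP1 and TRIM22 are highest and OAS3 lowest in WT cells with 5-FU, and the W329G groups lie close together.

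IFIT proteins bind foreign RNA. IFIT3 had 7.74, 4.73, 1.80 and 3.24 CPM in W329G cells with 5-FU, against 5.78, 2.35, 1.85 and 2.77 CPM with DMSO. In WT cells it had 11.9, 9.92, 15.0 and 5.05 CPM with 5-FU, against 3.89, 3.52, 9.68 and 4.26 CPM with DMSO. Both WT groups spread widely and overlapped, and each of the 4 WT pairs was higher with 5-FU. The log2 response in WT cells was 0.91 ± 0.47 for IFIT3 (edgeR adjusted p = 0.279, and 0.00553 with paired lines), and for IFIT2, which partners it, 1.08 ± 0.64 (0.353, and 0.00364 with paired lines). IFIT1, the cap sensor of the family, was lower with 5-FU in 4 of 4 W329G pairs, at -0.54 ± 0.31 (adjusted p = 0.498, and 0.031 with paired lines), and stood at -0.04 ± 0.31 in WT cells. IFIT5 had 0.20 ± 0.16 and -0.13 ± 0.16 in W329G and WT cells, neither called.

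The transcription factors of the set were not called with unpaired lines. STAT2 had a log2 response of 0.10 ± 0.13 in W329G cells and 0.42 ± 0.13 in WT cells (edgeR adjusted p = 0.0583, and 0.0148 with paired lines), and IRF9 0.55 ± 0.31 in W329G cells and 0.64 ± 0.31 in WT cells (adjusted p = 0.241, and 0.00534 with paired lines). IRF3, IRF7 and IRF2, a repressor at many of the same sites, were not called.

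EIF2AK2, the kinase PKR that stops translation on sensing double-stranded RNA, had a log2 response of 0.00 ± 0.18 in W329G cells and -0.54 ± 0.18 in WT cells (edgeR adjusted p = 0.0681, and 0.0155 with paired lines). In the ISG15 system, USP18, which removes ISG15 from proteins and restrains the interferon receptor, had 0.11 ± 0.22 in W329G cells and -0.56 ± 0.22 in WT cells (0.145, and 0.0241 with paired lines), while ISG15 and its conjugating enzyme UBE2L6 were not called. IFI44 had -0.62 ± 0.37 in W329G cells (0.502, and 0.0264 with paired lines) and -0.33 ± 0.36 in WT cells. The MX and IFITM families, IFI6, IFI27, IFI35, IFI44L, ISG20, SAMD9, SAMD9L, BST2 and ADAR were called in neither genotype, paired or not. Apart from genes already named, the responses farthest from 0 among genes not called were 0.77 ± 0.63 for IFITM1 in W329G cells and 0.76 ± 0.43 for IFI35 in WT cells.

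**Figure D3:**
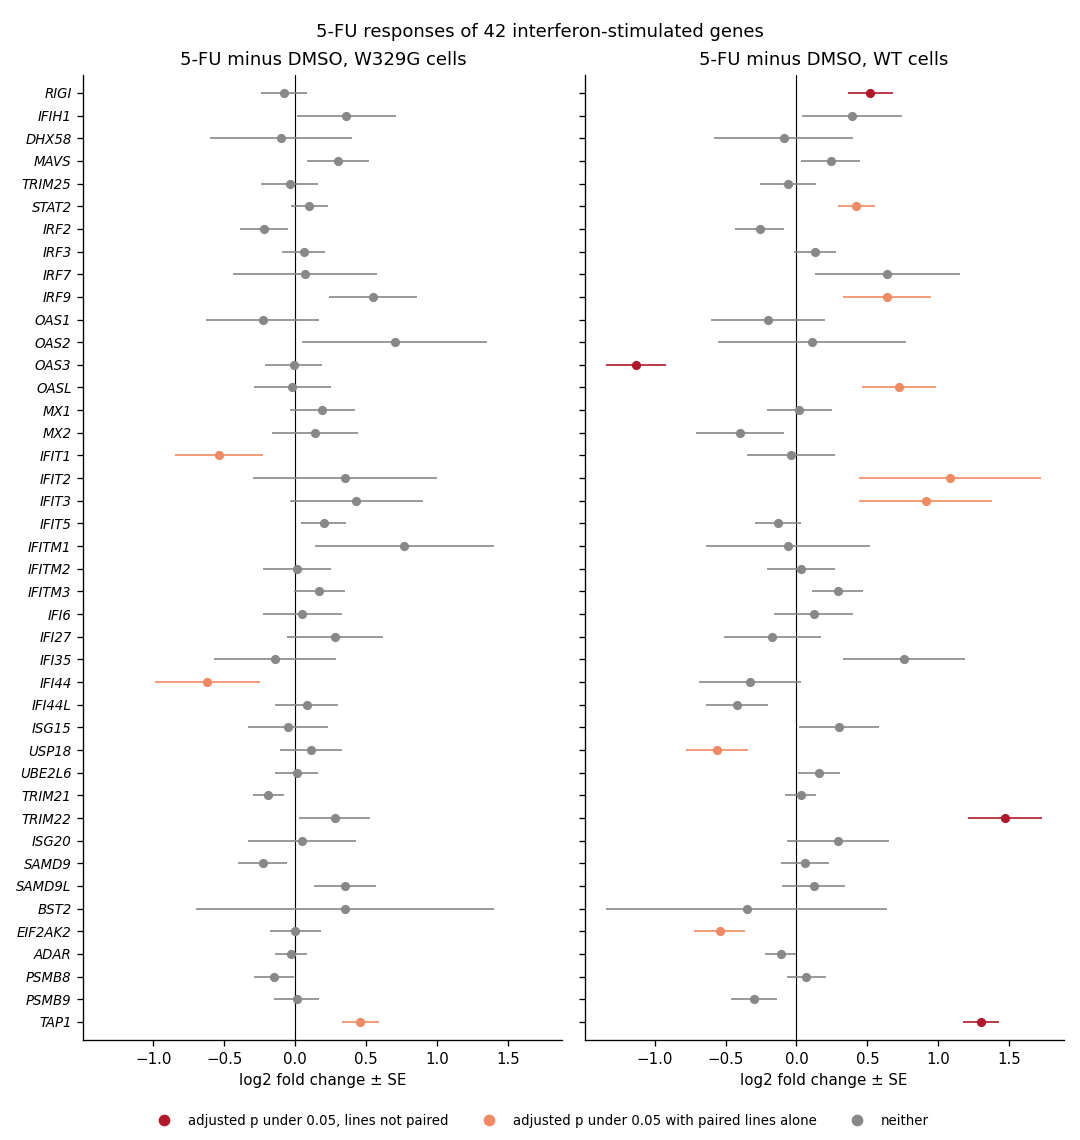
Log2 fold change of 5-FU over DMSO (± SE) for the 42 interferon-stimulated genes in W329G cells (left) and WT cells (right), ordered by role. Red points were called without pairing, orange points with paired lines alone; 0 genes are red in W329G cells and 4 in WT cells.

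The next question was whether the responses differed between the genotypes. The difference, W329G minus WT, was called for 1 of 42 members, against 1.21% of all genes tested. TAP1 differed by -0.85 ± 0.18 on the log2 scale (edgeR adjusted p = 0.0325), and by -0.88 and -0.83 in experiments 1 and 2 alone. Without the pairs of replicates 1, 2 or 3 the adjusted p became 0.317, 0.212 and 0.0618. With paired lines the difference was called for 4 members, against 6.15% of all genes: TAP1 (-0.83 ± 0.14, adjusted p = 0.00331), TRIM22 (-1.22 ± 0.21, 0.0037) and OASL (-0.72 ± 0.17, 0.0203) were lower and OAS3 (1.14 ± 0.14, 0.000328) was higher. Unpaired, TRIM22 stood at -1.19 ± 0.36 (adjusted p = 0.16), OAS3 at 1.13 ± 0.29 (0.0821) and IFI35 at -0.90 ± 0.61 (0.799).

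The comparison of genotypes without drug rested on sums of the counts of a line in both experiments, 2 sums per genotype and treatment, on 17478 genes, since libraries of a line are not independent replicates of a genotype. Under DMSO 1 of 42 members differed, against 1.42% of all genes. BST2 (tetherin), which holds budding virus at the cell surface, had 2.35, 2.88, 0.739 and 0.395 CPM in W329G cells and 2.03, 14.1, 13.7 and 0.343 CPM in WT cells. The high WT values came from cells 2 of experiment 1 and cells 1 of experiment 2, and the other WT libraries overlapped the W329G range. The log2 difference was -2.46 ± 0.30 (edgeR adjusted p = 0.0156), and it was not called when single libraries were tested (0.265, with 0.931% of all genes called), with limma-voom and the line as a random block (0.469, 1.31%) or without W329G line 1 (0.307) or line 2 (0.225), where 0.00557% of all genes were called each time. Single libraries with the replicate number as a block called 1 member, OASL and not BST2 (3.36% of all genes). Without WT line 1 BST2 was again the 1 member called (0.768% of all genes). Without WT line 2 the count was 8 while the share over all genes was 12.8%, with IFIT2, IFIT3, IFITM2, ISG20 and OASL lower and IFI44L and SAMD9 higher in W329G cells beside BST2. With the line numbers exchanged in experiment 2, BST2 stood at -2.27 ± 1.28 (edgeR adjusted p = 0.701). No member was called then, with 0.0115% of all genes called. Summed by label over all lines, TRIM22 differed by -0.32 ± 0.13 (0.22). The largest differences among genes not called were -1.08 ± 0.63 for IFITM1, -0.98 ± 0.45 for ISG20, which degrades viral RNA, and -0.90 ± 0.41 for IFIT3.

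Under 5-FU 13 of 42 members (31.0%) differed between the genotypes, against 14.4% of all genes. The set was chosen with earlier results of these data known, so these shares are a description and were not tested against each other. Lower in W329G cells were OASL (-1.71 ± 0.29, edgeR adjusted p = 0.00629), TRIM22 (-1.69 ± 0.13, 0.000291), BST2 (-1.65 ± 0.29, 0.00756), TAP1 (-0.88 ± 0.13, 0.00372), IFI44 (-0.81 ± 0.13, 0.00468), RIGI (-0.49 ± 0.13, 0.0353) and TRIM21 (-0.41 ± 0.11, 0.0386). Higher in W329G cells were IFI44L (1.09 ± 0.20, 0.00914), OAS3 (0.87 ± 0.17, 0.0104), USP18 (0.87 ± 0.23, 0.0386), EIF2AK2 (0.63 ± 0.15, 0.0276), IFIT5 (0.61 ± 0.15, 0.0252) and SAMD9L (0.53 ± 0.13, 0.0277). The median over the set was -0.22, against -0.01 over all genes. These 13 calls take the line numbers by label. With the numbers exchanged in experiment 2, 1 member was called (1.27% of all genes). The SE of each of the 13 was larger then, from 0.14 for TAP1 to 1.25 for BST2. Tests on single libraries called 11 members (12.9% of all genes) and limma-voom with the line as a random block 12 (14.5%). Single libraries with the replicate number as a block called 13 (20.3%), of which IFITM3 and ISG20 were not among the 13 above, while BST2 and SAMD9L were not called. The count was 1 without W329G line 1 (1.84% of all genes), 1 without W329G line 2 (0.998%), 10 without WT line 1 (13.9%) and 14 without WT line 2 (16.5%), so it moved together with the share over all genes.

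The levels behind these calls differed in how far the groups overlapped. TRIM22 and OASL did not overlap between the genotypes. OASL stood at 2.10 to 6.93 CPM in W329G cells and 7.96 to 32.3 CPM in WT cells with 5-FU, and TRIM22 at 11.5 to 30.8 CPM and 38.6 to 86.1 CPM. EIF2AK2 had 104, 85.3, 109 and 127 CPM in W329G cells with 5-FU, against 52.0, 56.0, 77.2 and 81.8 CPM in WT cells, which did not overlap. IFI44L, a relative of IFI44 that dampens interferon signalling, had 7.29, 9.35, 5.49 and 5.08 CPM in W329G cells with 5-FU, against 2.50, 4.06, 3.22 and 2.62 CPM in WT cells, again without overlap. IFIT5 had 26.2, 19.5, 21.2 and 26.4 CPM in W329G cells with 5-FU, against 12.0, 17.2, 15.3 and 16.8 CPM in WT cells, and USP18 4.72 to 7.54 CPM against 2.43 to 4.16 CPM. RIGI stood at 7.96 to 13.2 CPM against 13.9 to 15.6 CPM, and TRIM21 at 17.4 to 19.3 CPM against 22.6 to 26.7 CPM. IFIT5, USP18, RIGI and TRIM21 did not overlap either. The share of all genes without overlap was not determined, so its absence is no result about the set. For BST2 and SAMD9L, a growth-restraining gene mutated in bone marrow failure, the groups overlapped. IFI44 overlapped too, reaching 23.0 CPM in W329G cells and falling to 18.9 CPM in WT cells. So did OAS3, falling to 18.9 CPM in W329G cells and reaching 19.2 CPM in WT cells. TAP1 reached 54.2 CPM in W329G cells and fell to 50.0 CPM in WT cells, an overlap across the experiments and not within either. Not called but farthest from 0 were IFIT2 (-1.38 ± 0.66), ISG20 (-1.34 ± 0.45) and IFIT3 (-1.28 ± 0.41).

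**Figure D4:**
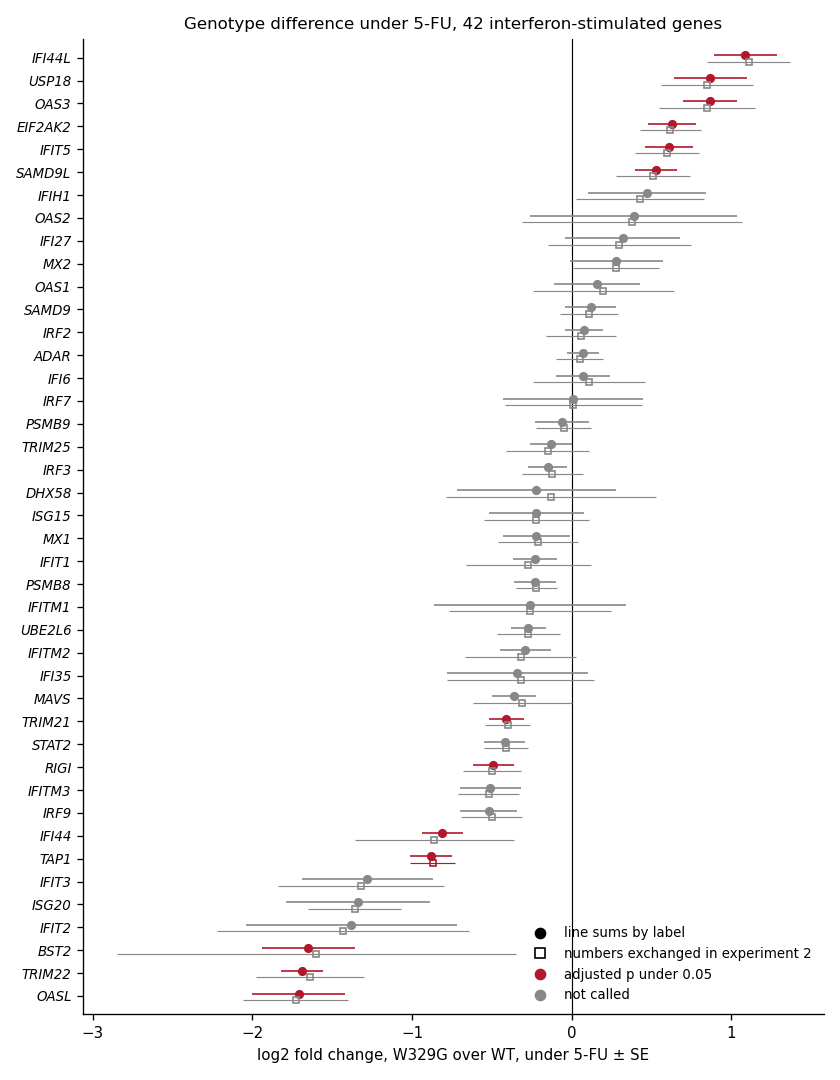
Log2 fold change of W329G over WT cells under 5-FU (± SE) for the 42 interferon-stimulated genes, sorted. Filled circles are counts summed per line by label and open squares the same sums with the line numbers exchanged in experiment 2, in red where called; the values stay close to each other while the number called is 13 by label and 1 with exchanged numbers.

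The lines within a genotype were compared because they set the error of the genotype comparisons. Taken by label over both experiments, line 2 against line 1 was called for 0 of 42 members in W329G cells and 0 of 42 in WT cells, and for 0% of all genes in either. At an unadjusted p under 0.05 the counts were 0 and 5 members, and the DESeq2 test called 0 and 1 (ISG20). Within an experiment the same lines differed widely: 18 of 42 members in experiment 1 (28.6% of all genes) and 8 of 39 in experiment 2 (20.7%) for W329G cells, and 12 of 42 (19.8%) and 10 of 39 (16.8%) for WT cells. These fits compare 2 libraries of a line, DMSO and 5-FU, with 2 of the other. In W329G cells 6 members were called in both experiments (IFI44, IFIT1, IFIT3, IFITM2, MAVS and TRIM22), and all 6 had opposite signs by label. In WT cells 4 were called in both, of which BST2, IFI6 and OAS3 had opposite signs and ISG20 the same sign.

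BST2 was the most divided between lines: line 2 over line 1 of WT cells was 2.69 ± 0.20 in experiment 1 and -4.87 ± 0.37 in experiment 2 on the log2 scale. WT cells with 5-FU had 2.03, 11.7, 10.2 and 0.457 CPM of it, and the high values again stood under number 2 in experiment 1 and under number 1 in experiment 2. IFI44 in W329G cells had -1.14 ± 0.16 in experiment 1 and 1.39 ± 0.16 in experiment 2, and IFIT1 had -1.23 ± 0.14 and 0.80 ± 0.19. TRIM22 in W329G cells had 0.81 ± 0.15 in experiment 1 and -0.62 ± 0.16 in experiment 2. Across genes, the difference of line 2 minus line 1 in experiment 1 correlated with that in experiment 2 with r = -0.619 in W329G cells and r = -0.331 in WT cells, as a description over genes, which are not independent replicates.

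With the numbers exchanged in experiment 2, line 2 against line 1 was called for 8 members in W329G cells (22% of all genes) and 5 in WT cells (10.3% of all genes). The 8 were IFI6, IRF3, MAVS and TRIM22, higher in line 2 as numbered in experiment 1, and IFI44, IFIT1, IFITM2 and IRF2, lower there. The 5 were BST2, IFI6, OAS3, TRIM25 and UBE2L6, all higher in line 2. Summed in that way, the genotypes differed under DMSO for 0 of 42 members (0.0115% of all genes, 3 members at an unadjusted p under 0.05) and under 5-FU for 1, TAP1 (-0.87 ± 0.14, adjusted p = 0.0423, 1.27% of all genes). TRIM22 then stood at -1.64 ± 0.34 (0.0689), OASL at -1.73 ± 0.33 (0.0581), IFI44L at 1.11 ± 0.26 (0.0897) and BST2 at -1.60 ± 1.25 (0.593). The numbering in experiment 2 is taken from the labels, and which numbering is right was not tested.

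**Figure D5:**
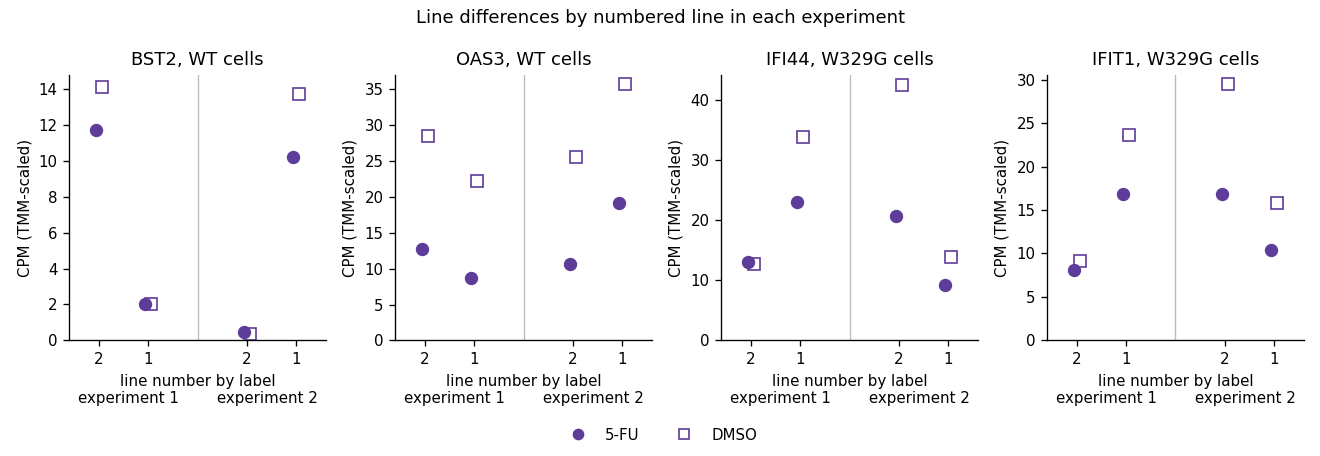
Levels (CPM) of 4 interferon-stimulated genes in the numbered lines of 1 genotype, with line 2 left of line 1 within experiment 1 (left of the grey line) and experiment 2 (right); filled circles are 5-FU and open squares DMSO. In each panel the higher values stand under one number in experiment 1 and under the other in experiment 2, as for BST2 in WT cells with DMSO, with 14.1 CPM under number 2 in experiment 1 and 13.7 CPM under number 1 in experiment 2.

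Other genes of the pathway were read from lists that hold none of the 42. With unpaired lines, none of 9 receptor and kinase genes and 13 negative regulators was called for the response to 5-FU in either genotype. With paired lines, 2 receptor and kinase genes (1 higher and 1 lower) and 1 negative regulator (lower) were called in W329G cells, and 1 receptor or kinase gene (higher) and 5 negative regulators (1 higher and 4 lower) in WT cells. Over all genes tested, 0.785% were called in W329G cells and 8.78% in WT cells with unpaired lines, and 10.9% and 24.8% with paired lines. The lists that follow are given with unpaired lines first. Among signal transducers and other IRFs, 8 of 9 were tested, and 0 were called in W329G cells against 4 in WT cells, where IRF1 (0.53 ± 0.14) and IRF2BP2 (0.43 ± 0.10) rose and IRF8 (-0.71 ± 0.17) and PLSCR1 (-0.83 ± 0.10) fell. IRF8, a factor of the myeloid lineage, had 11.4 to 14.9 CPM in W329G cells with 5-FU, 7.33 to 10.8 CPM in W329G cells with DMSO, 3.95 to 6.59 CPM in WT cells with 5-FU and 7.72 to 10.3 CPM in WT cells with DMSO. With paired lines 3 of these 8 rose in W329G cells, and 2 rose and 2 fell in WT cells. The responses of IRF8 differed between the genotypes by 1.25 ± 0.23 (edgeR adjusted p = 0.0126).

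In the sensor pathway 12 of 16 genes were tested, and 0 were called in W329G cells and 3 in WT cells. TLR3, an endosomal sensor of double-stranded RNA, rose by 1.16 ± 0.32 and STING1, the adaptor of DNA sensing, by 0.86 ± 0.22, while CGAS, the DNA sensor upstream of STING1, fell by 0.69 ± 0.17. Of 58 other interferon-stimulated genes 54 were tested: TRIM5 (-0.47 ± 0.10) was the single one called in W329G cells, and in WT cells GBP3 (0.76 ± 0.20) and STAT3 (0.68 ± 0.18) rose and CMPK2 (-1.76 ± 0.44), NMI (-0.84 ± 0.23), APOBEC3B (-0.85 ± 0.19) and TRIM14 (-0.44 ± 0.13) fell. Their median response was 0.07 in both genotypes. With paired lines the calls became 3 higher and 2 lower in W329G cells and 8 higher and 5 lower in WT cells for these 54 genes, and 1 higher and 1 lower in W329G cells and 3 higher and 1 lower in WT cells for the sensor pathway. Among 18 partners of antigen processing 0 were called in W329G cells and 1 in WT cells, the class I heavy chain HLA-B (0.53 ± 0.15), and with paired lines 1 was higher and 1 lower in W329G cells and 4 were higher in WT cells.

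Between the genotypes under DMSO no gene of these pathway lists was called. Under 5-FU, W329G cells had lower HLA-B (-0.84 ± 0.13, edgeR adjusted p = 0.00411), HLA-C (-0.51 ± 0.10, 0.0133), STING1 (-0.95 ± 0.24, 0.0303) and TBK1 (-0.47 ± 0.12, 0.0305), and higher CGAS (1.01 ± 0.17, 0.00613), IRF8 (1.24 ± 0.17, 0.00278) and CMPK2 (1.52 ± 0.32, 0.0149). HLA-B had 144 to 236 CPM in W329G cells with 5-FU and 212 to 471 CPM in WT cells with 5-FU, and these ranges overlapped. Of the 55 other interferon-stimulated genes tested 3 were higher and 5 lower, and of the 18 antigen processing partners 1 was higher and 3 were lower. Of 8 signal transducers and other IRFs tested 2 were higher and 1 lower. In the sensor pathway 1 of 13 was higher and 2 were lower, and 1 of 13 negative regulators was higher. Not every gene called is named here. Over all genes 14.4% were called in this comparison, so these counts are no result about the lists. The lists were read with lines by label alone. With the numbers exchanged in experiment 2, the share over all genes was 1.27%.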

How the data were processed

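TruSeq libraries were made from poly-A RNA, per the labels' protocols. Each of the 16 libraries has a deposited table of raw counts by gene, with Ensembl genes and exon coordinates in experiment 1 and gene symbols in experiment 2. No aligner, counter or strand setting is given in the sources used here. The build named is hg19, per the submitters' processing notes, while 96.3% of 56898 genes of experiment 1 have the start and end of GENCODE release 29, which is on GRCh38, so coordinates are read as GRCh38. In experiment 2 all 26 values of 7 digits end in 0, which appear rounded. The tables were joined by symbol, 28443 genes directly and 242 through an older symbol (RIGI is listed as DDX58 in experiment 2), with 19 ambiguous symbols dropped. The resulting 28685 genes held 97.91% to 98.89% of a library's counts.

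Counts were tested with edgeR 4.0.16 in R 4.3.3 (quasi-likelihood F test with TMM scaling, low counts removed with filterByExpr, and Benjamini-Hochberg adjustment over all genes tested, threshold 0.05). The SE is the size of the log2 fold change over the square root of F. Responses to 5-FU and their difference used 16 libraries with a term for experiment, and genotypes used 8 sums per line and treatment. Levels are CPM with TMM-scaled library sizes. Intervals and limits for a count of 0 cover counting error alone; at these depths the number of lines limits the precision. The script was tested on simulated data. Alternatives were DESeq2 1.42.0 (size factors or test), no low-count filter, no mitochondrially encoded genes, a minimum log2 fold change of 1 in size, lines as blocks, no experiment term, each experiment alone, single libraries, limma-voom (limma 3.58.1), exchanged line numbers and leaving out each replicate or line.

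Replicate numbers name lines, so the 5-FU and DMSO libraries with the same number in an experiment form a pair: line 2 minus line 1 under 5-FU correlated over genes with line 2 minus line 1 under DMSO, with r = 0.708 and 0.632 in W329G cells and 0.487 and 0.597 in WT cells. No library was a copy of another of its group and experiment (chi-square over degrees of freedom 60 to 182). The 42 members and the 12 other lists were chosen with earlier results of these data known. Genes named are those called, TRIM22 in each comparison between treatments or genotypes, the 3 largest changes among members not called, the highest and lowest members per length, and at most 4 called genes per other list; the levels of IFIT3, OASL and IFNE were added after their values were seen. Promoter sequences are from RefSeq (GRCh38.p14); 11 members had no window in the table used.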

Additional observations from a re-analysis of the deposited data

Results flagged for a closer look

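The responses of TAP1 to 5-FU differed between the genotypes by -0.85 on the log2 scale, W329G minus WT (edgeR quasi-likelihood interaction, adjusted p = 0.0325). Within groups of 4 libraries, 6 of 168 gene and group combinations had 1 library set apart from the other 3 by Dixon's criterion, and chance sets apart about 1 in 20. In W329G cells with 5-FU, IFIT2 was highest in cells 1 of experiment 1, at 5.59 CPM. In WT cells with 5-FU, the lowest libraries stood apart for RIGI, at 13.9 CPM in cells 2 of experiment 2, for IFITM2, at 19.9 CPM in the same library, and for IFI44, at 18.9 CPM in cells 2 of experiment 1. In WT cells with DMSO, the highest library stood apart for IFIT2, at 7.73 CPM, and for IFIT3, at 9.68 CPM, both in cells 1 of experiment 2.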

How the results depend on the processing

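No log2 fold change of a called member changed sign under any alternative run. For the response in W329G cells the count of members called was 1 with the DESeq2 test and 3 with paired lines (replicate block), against 0, and in WT cells it was 11 with paired lines, 1 without the experiment term, 1 in experiment 1 and 0 in experiment 2, against 4, where the WT count was 3 to 4 on leaving out a pair. For the difference of responses it was 3 with DESeq2, 4 with paired lines and 0 without the experiment term, in either experiment alone or with a log2 fold change of at least 1, and 0 to 1 on leaving out a pair, against 1. For the genotypes under DMSO it was 3 with DESeq2, 2 without the filter, 0 in either experiment alone, on single libraries, with limma-voom or with exchanged numbers, and 0 to 8 on leaving out a line, against 1. Under 5-FU it was 2 in experiment 1, 1 in experiment 2, 1 with exchanged numbers, 4 with a log2 fold change of at least 1, and 1 to 14 on leaving out a line, against 13. For line 2 against line 1 in W329G cells it was 18 in experiment 1, 8 in experiment 2 and 8 with exchanged numbers, and in WT cells 12, 10 and 5, and 1 with DESeq2, against 0 in both; leaving out a replicate gave 0 to 3, the 3 without WT replicate 1. The cause of these changes was not tested, except that an experiment alone has fewer libraries and that a fold minimum removes smaller changes by construction. Over all genes, the WT response was called for 585 genes higher and 858 lower, against 166 and 235 without the experiment term. Experiment 1 alone gave 84 and 121, and experiment 2 alone 0 and 0. For the W329G response and the difference of responses, neither experiment alone called any gene. Between the genotypes under 5-FU, 1271 genes were higher and 1243 lower. Experiment 1 alone gave 218 and 202 there, and experiment 2 alone 7 and 23. The DESeq2 test called 6 members for the WT response, with 952 genes higher and 1141 lower over all. Between the genotypes under 5-FU it called 17, with 1692 and 1656 over all. Without the low-count filter these counts were 3 (573 and 674 over all) and 15 (1496 and 1566). For the difference of responses, the fit without the experiment term called 6 genes higher and 15 lower, against 114 and 84. Counts without mitochondrially encoded genes and with DESeq2 size factors were those given in the report for every comparison. Single libraries with the replicate number as a block gave 1 and 13 members under DMSO and 5-FU, with 3.36% and 20.3% of all genes called. No source used here says that numbers pair libraries across genotypes. Deviations of same-numbered libraries from their group mean correlated over genes with r = -0.0335 and 0.163 under 5-FU in experiments 1 and 2. Under DMSO r was -0.11 and 0.331. Leaving out a line leaves 1 sum in that group, assumed to vary like the others. Experiment 2 alone tested 39 members.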
